A study of Homo sapiens with 12 samples.

Results

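LNCaP is an established, androgen-responsive human prostate cancer cell line. Its cells received by transfection either a scramble microRNA, as the control, or 1 of the microRNAs miR-205, miR-203 and miR-130a. Total RNA from 3 cultures of each kind, named biological replicates, was hybridised to 12 expression arrays. The labels give the tumour stage of the line as early, and no dose, time after transfection or microRNA arm. The genes described here are those that divide the 4 groups into 2 sides. On the first side stand the 6 arrays of miR-130a and miR-203, called interferon-on, and on the second the 6 arrays of miR-205 and scramble, called interferon-off. For each of 11963 genes the brightest probe set, by its mean over the 12 arrays, was used. A gene was taken when all 6 values of one side lay above all 6 of the other. This held for 382 genes, of which 214 were higher and 168 were lower on the interferon-on side. The genes were thus chosen by the array values of this same division, so the differences between the sides are given as a description with no test. The sides also differ in the microRNA transfected, and the interferon state and the microRNAs cannot be told apart.

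Interferons are secreted proteins that cells make when sensors such as RIGI and MDA5 (IFIH1) detect viral RNA. They bind receptors on the same or neighbouring cells, and JAK kinases then activate transcription factors, among them a complex containing IRF9, which binds a promoter sequence called the interferon-stimulated response element (ISRE). The genes induced this way include the IFIT proteins, which bind foreign RNA, the OAS family, and the ubiquitin-like protein ISG15 with its ligase HERC5.

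The microRNAs themselves differ in the seed, the stretch of bases that pairs with target transcripts, and both entries found in the RefSeq table (GRCh38.p14) are printed here because they fell on opposite sides of the division. The capitals mark the seed, bases 2 to 8. The labels do not say which arm was transfected, so the arms shown are those in the table: hsa-miR-203a-3p at chr14:104117469-104117490, plus strand, from the interferon-on side, and hsa-miR-205-5p at chr1:209432166-209432187, plus strand, from the interferon-off side. No sequence is printed for miR-130a.
hsa-miR-203a-3p: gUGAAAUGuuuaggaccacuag
hsa-miR-205-5p: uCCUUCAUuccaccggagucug

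The leading genes by gap were interferon-induced, and the 250 bases before their start sites are printed because an ISRE core recurred in them. The gap of a gene is the lowest value of the higher side minus the highest value of the lower side, on the log2 scale. The windows come from the RefSeq promoter table (GRCh38.p14) and run 5′ to 3′ on the strand of the gene. OASL, IFIT2 and CCL5, with gaps of 3.45, 3.39 and 2.84, had no window to search, so nothing is said of their promoters. Capitals mark each match to the ISRE core, which is GAAA, any 2 bases and GAAA again, searched on both strands (on the other strand it reads TTTC, any 2 bases, TTTC). They are shown for the 5 genes with the largest gap that hold a match: IFIT3 (chr10:89327747-89327996, plus), IFIT1 (chr10:89392373-89392622, plus), CXCL10 (chr4:76023498-76023747, minus), HERC5 (chr4:88456869-88457118, plus) and RSAD2 (chr2:6877527-6877776, plus).
IFIT3: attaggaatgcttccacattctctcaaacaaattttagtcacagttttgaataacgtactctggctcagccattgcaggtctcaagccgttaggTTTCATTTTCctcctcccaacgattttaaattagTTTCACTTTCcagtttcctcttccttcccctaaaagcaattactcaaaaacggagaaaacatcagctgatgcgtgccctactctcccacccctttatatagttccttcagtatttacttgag
IFIT1: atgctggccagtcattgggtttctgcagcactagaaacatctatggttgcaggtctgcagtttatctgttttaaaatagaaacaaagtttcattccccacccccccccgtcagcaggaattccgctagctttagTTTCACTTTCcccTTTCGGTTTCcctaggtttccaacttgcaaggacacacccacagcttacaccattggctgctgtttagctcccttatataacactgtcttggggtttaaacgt
CXCL10: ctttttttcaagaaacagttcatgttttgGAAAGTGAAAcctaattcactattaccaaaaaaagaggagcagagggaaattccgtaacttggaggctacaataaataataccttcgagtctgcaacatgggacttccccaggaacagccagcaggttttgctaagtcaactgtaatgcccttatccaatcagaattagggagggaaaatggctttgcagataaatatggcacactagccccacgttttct
HERC5: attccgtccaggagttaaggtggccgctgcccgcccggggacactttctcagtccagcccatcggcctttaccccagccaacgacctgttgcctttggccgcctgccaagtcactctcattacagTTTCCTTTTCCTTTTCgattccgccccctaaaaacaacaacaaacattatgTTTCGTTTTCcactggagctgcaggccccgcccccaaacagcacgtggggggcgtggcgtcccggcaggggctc
RSAD2: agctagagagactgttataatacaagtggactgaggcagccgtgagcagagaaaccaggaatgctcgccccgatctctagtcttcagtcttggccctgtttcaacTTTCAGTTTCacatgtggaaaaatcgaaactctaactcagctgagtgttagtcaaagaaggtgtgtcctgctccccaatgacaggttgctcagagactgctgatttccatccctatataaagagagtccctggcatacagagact

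The first matching base lay 156 and 122 bases before the start of IFIT3 and 116 and 103 bases before that of IFIT1. CXCL10 held a single match beginning 221 bases before its start, and RSAD2 held one beginning 145 bases before. HERC5 held 3 matches, beginning 125, 119 and 74 bases before the start, of which the first pair overlap each other.

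The deposited values are log2 expression levels that run from 2.36 to 13.95, with array medians between 2.76 and 2.78. A gene above the median of its array is called detected here, and a gene was tested in a comparison within a side if it was detected on at least 3 arrays, which left 6821 genes. Arrays of the same group correlated at 0.992 to 0.997 over the 6821 tested genes and arrays of different groups at 0.964 to 0.986. The 3′ minus 5′ difference of the ACTB control probe sets, a sign of RNA length, was 2.18 to 2.54 on the interferon-on arrays and 2.21 to 2.66 on the interferon-off arrays. For GAPDH it was 0.72 to 0.80 and 0.56 to 0.90, so the ranges of both controls overlapped. Of 18 leukocyte and endothelial markers, 18 were not detected on any array, and their summed level was 42.6 to 42.8 with miR-130a, 42.8 to 43 with miR-203, 42.6 to 42.7 with miR-205 and 42.6 to 42.7 with scramble. Of 14 fibroblast and smooth muscle markers 12, and of 12 basal and neuroendocrine prostate markers 11, were not detected on any array, while 12 of 13 prostate luminal markers were tested. In bulk RNA, fewer cells of a kind and less RNA per cell cannot be told apart.

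The 214 higher genes were 1.79% of all genes and the 168 lower genes were 1.40%. Their differences had unlike sizes. Among the higher genes the median difference between the sides was 0.51 log2, 41 differed by at least 2-fold and 20 by at least 4-fold. Among the lower genes the median difference was -0.49, 9 differed by at least 2-fold and 0 by at least 4-fold. A gap of at least 0.5 was found for 32 higher genes and 1 lower gene, and a gap of at least 1 for 18 and 0. The median gap was 0.09 in both directions, so most members were separated narrowly. The genes nearest to the threshold are named only from those detected on all 12 arrays. Just inside it stood SET and PARP12 among the higher genes, with gaps of 0.00034 and 0.00039. Among the lower genes RPS6KA2 and TGOLN2 stood there, with gaps of 0.00062 and 0.0014. Just outside the threshold, with a gap of 0, stood WDR91, ZNF428, STAG3L4 and PREPL.

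**Figure D1:**
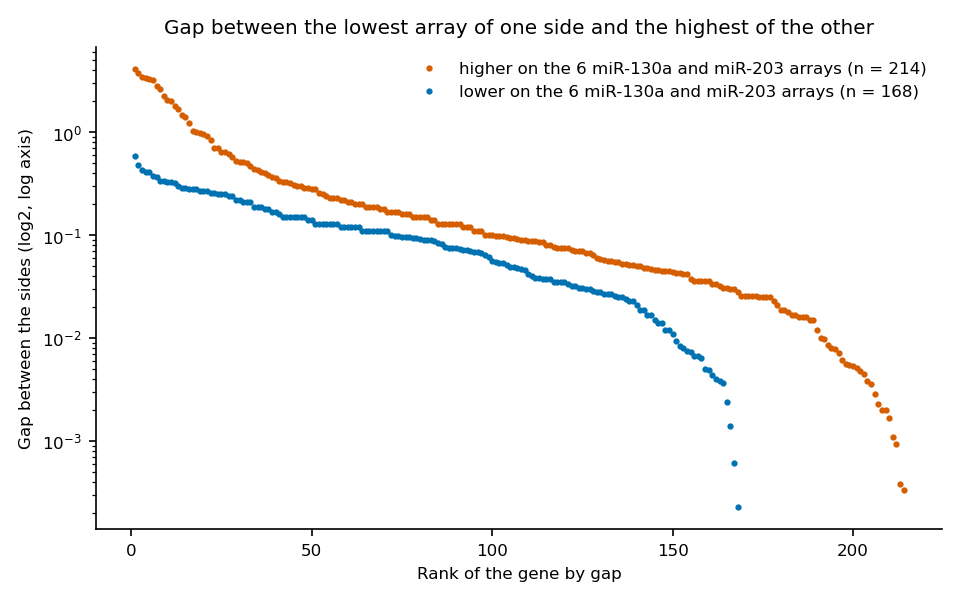
Genes without overlap between the sides, ordered by rank (horizontal axis) against the gap in log2 units (vertical axis, drawn on a log axis), for the 214 higher and the 168 lower genes. The higher genes reach a gap of 4.14 at IFIT3, while the lower genes reach 0.59 at CREB3L2.

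The sides are named for interferon genes measured on these same arrays, with IFIT1, OASL and HERC5 as their markers, so wide gaps of interferon genes follow from the division and are described, not counted as a result. Of the 32 higher genes with a gap of at least 0.5, 22 belonged to the lists of antiviral effectors, ISG15 conjugation, sensors, interferon signalling, interferon regulatory factors and chemokines, as did 15 of the 18 with a gap of at least 1. Those lists held 38 of the 214 higher genes and 0 of the 168 lower genes. The lists were drawn up with results of these data known and are given as counts.

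Among the antiviral effectors, 24 of the 45 genes on the arrays were higher on the interferon-on side and 0 were lower. Of all genes, 1.79% were higher and 1.40% lower, and these shares also stand beside the list counts that follow. The median difference of the effectors was 0.71 against 0.00 for all genes. IFIT1, which binds viral RNA lacking the host cap, measured 11.54, 11.71 and 11.54 with miR-130a, 9.71, 9.55 and 9.76 with miR-203, 5.61, 5.77 and 5.76 with miR-205, and 4.98, 4.74 and 4.87 with scramble. All 4 groups were separate, in that order, and IFIT1 was detected on all 3 scramble arrays. Interferon-off is thus a name for the lower side: of the 214 higher genes, 21 were not detected on any interferon-off array. The sides differed by 5.35, a ratio of 40.7.

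IFIT3, a partner of IFIT1, had the widest gap of any gene, 4.14. Its values were 9.68, 9.97 and 9.66 with miR-130a, 7.74, 7.31 and 7.32 with miR-203, 3.17, 3.17 and 3.13 with miR-205, and 3.04, 2.99 and 3.17 with scramble. Both interferon-off groups met, and both interferon-on groups stood far apart. IFIT2 followed the same order, with group means of 8.85 ± 0.11, 6.62 ± 0.39, 2.90 ± 0.17 and 2.78 ± 0.12 (SD, n = 3 each, in the order miR-130a, miR-203, miR-205, scramble).

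OASL, an OAS relative that enhances RIGI signalling, measured 10.22, 10.59 and 10.30 with miR-130a, 8.48, 8.06 and 8.33 with miR-203, 4.55, 4.60 and 4.31 with miR-205, and 4.07, 4.28 and 4.07 with scramble. The lowest interferon-on array was 3.45 above the highest interferon-off array. RSAD2, the enzyme viperin, was not detected on any of the 6 interferon-off arrays, so the higher side exceeded it at least 16.3-fold. The bound sets the mean of the bright side against, on each dim array, the array median or the gene's own value, whichever was higher. OAS1, which makes the activator of the RNA-degrading enzyme RNase L, had group means of 6.55 ± 0.06, 5.48 ± 0.09, 2.82 ± 0.28 and 2.63 ± 0.12 (SD, n = 3, same order).

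Smaller gaps were seen for the IFITM membrane proteins, which restrict the entry of viruses. IFITM3 had group means of 8.90 ± 0.16, 8.57 ± 0.05, 7.75 ± 0.14 and 7.80 ± 0.03, and IFITM2 of 7.94 ± 0.08, 7.86 ± 0.11, 7.12 ± 0.06 and 7.23 ± 0.06 (SD, n = 3, same order). These were high on every array and differed between the sides by 0.96 and 0.73. At the low end, IFI44L was detected on only 2 of the 6 interferon-on arrays and separated by a gap of 0.023. The GTPases MX1 and MX2 and the DNA sensor IFI16 were not detected on any of the 12 arrays.

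Other effectors overlapped because miR-203 lay near the interferon-off arrays. The kinase PKR (EIF2AK2) had group means of 5.67 ± 0.05 with miR-130a, 4.59 ± 0.02 with miR-203, 4.61 ± 0.28 with miR-205 and 4.41 ± 0.05 with scramble. IFIT5 measured 5.11 ± 0.25, 3.59 ± 0.22, 3.26 ± 0.11 and 3.25 ± 0.11, and the guanylate-binding protein GBP1 measured 4.85 ± 0.16, 2.83 ± 0.23, 2.54 ± 0.05 and 2.54 ± 0.15 (SD, n = 3, same order). Each was at its highest with miR-130a.

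The ISG15 pathway, which attaches a ubiquitin-like protein to other proteins, was represented by 5 genes, of which 4 were members and 0 were lower. ISG15 itself measured 11.58, 11.67 and 11.39 with miR-130a, 10.65, 10.56 and 10.48 with miR-203, 8.29, 8.23 and 8.38 with miR-205, and 8.09, 8.30 and 8.46 with scramble. It was well detected on every array, and its interferon-off groups overlapped each other. HERC5, the ligase, measured 8.82, 9.05 and 8.86, then 7.29, 7.04 and 6.94, then 3.41, 3.71 and 3.50, then 3.66, 3.49 and 3.64 in the same order of groups, with a gap of 3.23. USP18, the protease that removes ISG15, had the smaller difference of 1.24.

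**Figure D2:**
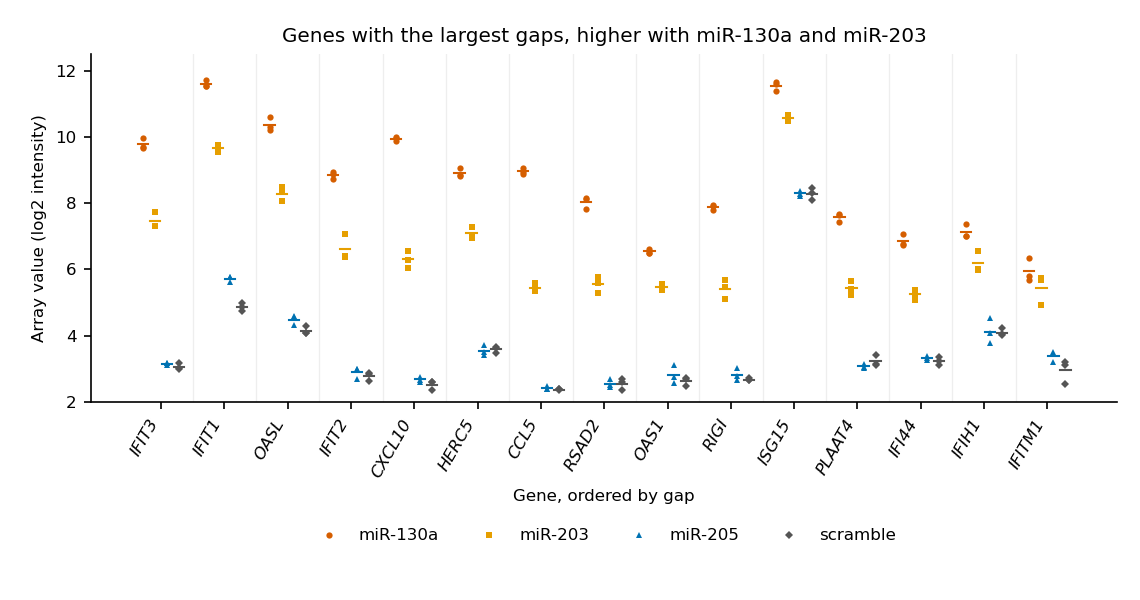
Log2 level on each of the 12 arrays for leading genes higher on the interferon-on side, by group, with short lines at the group means. The 3 arrays of miR-130a lie above those of miR-203 for IFIT1 (11.54 to 11.71 against 9.55 to 9.76), and both lie above miR-205 and scramble.

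Of 17 sensors and adaptors, 3 were higher. RIGI measured 7.93, 7.91 and 7.80 with miR-130a, 5.68, 5.10 and 5.47 with miR-203, 2.66, 3.03 and 2.77 with miR-205, and 2.71, 2.66 and 2.66 with scramble. It was detected on 2 of the 6 interferon-off arrays. IFIH1 measured 7.37, 7.00 and 7.00, then 5.99, 6.01 and 6.57, then 4.07, 3.78 and 4.52, then 4.22, 4.03 and 4.04, with a gap of 1.47. TLR3, the third, was not detected on any array, so its separation rests on values at the low end of the scale. The adaptors and kinases that carry the signal onward overlapped between the sides: MAVS lay at 5.90 ± 0.10, 5.94 ± 0.08, 5.94 ± 0.02 and 5.71 ± 0.05, and TBK1 at 6.64 ± 0.12, 6.71 ± 0.07, 6.83 ± 0.06 and 6.60 ± 0.09 (SD, n = 3, in the order miR-130a, miR-203, miR-205, scramble). TICAM1 and TRAF3 overlapped too. MYD88, the adaptor of most Toll-like receptors, had its lowest mean with miR-203, 5.34 ± 0.28, and its highest with miR-130a, 6.91 ± 0.11 (SD, n = 3). Of the 17 genes, 9 were not detected on any array.

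Of 23 genes for interferons, their receptors and the JAK-STAT pathway, only IFNB1, which encodes interferon beta, was a member. It measured 5.28, 5.06 and 4.87 with miR-130a and 2.74, 2.47 and 2.49 with miR-203, against 2.36 to 2.37 on the 6 interferon-off arrays. It was detected with miR-130a alone, and its separation with miR-203 rests on a gap of 0.10 among values under the array median. The receptor subunit IFNAR2 lay at 4.61 ± 0.03, 4.59 ± 0.00, 4.62 ± 0.05 and 4.56 ± 0.05 (SD, n = 3, same order) and overlapped between the sides, as did JAK2, IFNGR1 and IFNGR2. IFNAR2 read 4.59 on all 3 miR-203 arrays, and this value recurred in each other group, so its overlap does not show an equal level. The other subunit, IFNAR1, was not detected on any array. The kinase TYK2 stood at the threshold with a gap of 0. STAT3 was highest with miR-203, at 8.18 ± 0.13, and lowest with miR-130a, at 7.51 ± 0.18 (SD, n = 3). The regulators PIAS1, PTPN2 and PTPN6 overlapped as well, and 8 of the 23 genes were not detected on any array.

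Of 10 interferon regulatory factors, IRF9 and IRF1 were higher. IRF9 measured 5.89, 5.96 and 5.82 with miR-130a, 4.38, 4.23 and 4.41 with miR-203, 3.04, 3.14 and 3.39 with miR-205, and 3.26, 3.01 and 3.32 with scramble. IRF1 differed between the sides by 0.82. IRF7, which drives later interferon production, was 5.60 ± 0.09 with miR-130a and 4.55 ± 0.20 with miR-203, but its miR-203 values overlapped those of scramble at 4.30 ± 0.14 (SD, n = 3 each). IRF3, the factor that the sensors activate first, overlapped too, as did IRF2, and 4 of the 10 genes were not detected on any array.

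Of 32 chemokines and cytokines, 26 were not detected on any array, and 4 were higher. CXCL10, which attracts T cells, measured 10.00, 9.96 and 9.89 with miR-130a, 6.28, 6.57 and 6.05 with miR-203, 2.61, 2.67 and 2.76 with miR-205, and 2.36, 2.61 and 2.60 with scramble. It was not detected on any interferon-off array, which makes the interferon-on side at least 41.1-fold higher. By the same bound CXCL11 was at least 13-fold higher, and for CCL5 the bound was 21.7-fold. TNFSF10, the death ligand TRAIL, had means of 5.19 ± 0.23 with miR-130a and 3.15 ± 0.44 with miR-203 (SD, n = 3) and was at least 2.65-fold higher.

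Pathways next to the interferon response were counted in the same way, against the same 1.79% and 1.40% of all genes. A count of 1 gene in a list is too small to read against those shares. Of 18 NF-kB subunits and feedback genes, 1 was higher, TNFAIP3, an NF-kB inhibitor, which was not detected on any interferon-off array. It measured 4.80, 4.47 and 4.29 with miR-130a but 2.80, 2.62 and 2.96 with miR-203, near the array medians, against 2.39 to 2.54 on the interferon-off arrays. The bound of 1.86-fold for the side thus rests on miR-130a. Of 21 class I presentation genes, the peptide transporter TAP1 was higher by 0.69 and the chaperone PDIA3 was lower. Of 30 death receptor, caspase and BCL2 family genes, 6 were higher and 1 was lower, against 1.79% and 1.40% of all genes. One of the 6, XAF1, was not detected on any array, and DIABLO was separated by a gap of 0.0055. PMAIP1, which encodes the killer protein NOXA, measured 9.43, 9.35 and 9.24 with miR-130a, 8.23, 7.78 and 8.04 with miR-203, 6.66, 6.34 and 6.58 with miR-205, and 7.06, 6.90 and 7.16 with scramble. Here scramble lay above miR-205. The death receptor FAS differed by 0.81 and the caspase-8 regulator CFLAR by 0.47.

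Within the interferon-on side, the interferon genes were higher with miR-130a than with miR-203. This difference was not used to choose the genes, although the lower of both groups had to clear the other side. It was tested with limma across all 6821 genes, with Benjamini-Hochberg adjustment, and 21.1% of them were higher and 20.1% lower with miR-130a at an adjusted p under 0.05. Of the 38 interferon genes 35 were tested: 31 were higher with miR-130a (88.6%), 0 were lower and 4 did not pass, and the median difference was 1.07 against -0.02 for all tested genes. At an unadjusted p under 0.05 by limma, 31 were higher and 0 lower. These p-values take their error from the spread between cultures of a group.

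The chemokines differed most. CXCL11 was higher with miR-130a by 4.69 ± 0.14 (SE, adjusted p = 3.16e-10), CXCL10 by 3.65 ± 0.12 (adjusted p = 3.3e-10) and CCL5 by 3.51 ± 0.08 (adjusted p = 1.26e-11). IFNB1 was higher by 2.50 ± 0.10 (SE, adjusted p = 3.75e-09), and since it was not detected with miR-203 this is at least 4.94-fold. IFNB1 was detected with miR-130a alone and so entered the test only through the group found higher. Neither its p-value nor its place among the 31 genes is therefore independent support. IFIT1 was higher by 1.92 ± 0.09 (adjusted p = 1.23e-08) and ISG15 by 0.98 ± 0.10 (adjusted p = 7.68e-06). The 4 that did not pass were IFITM2, at 0.08 ± 0.08 (SE, adjusted p = 0.457), IFITM1, at 0.49 ± 0.23 (adjusted p = 0.107), the ubiquitin ligase TRIM21, at 0.12 ± 0.07 (adjusted p = 0.194), and the nucleotide hydrolase SAMHD1, at 0.28 ± 0.14 (adjusted p = 0.128). IFITM3 was higher with miR-130a by 0.33 ± 0.09 (adjusted p = 0.0102).

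**Figure D3:**
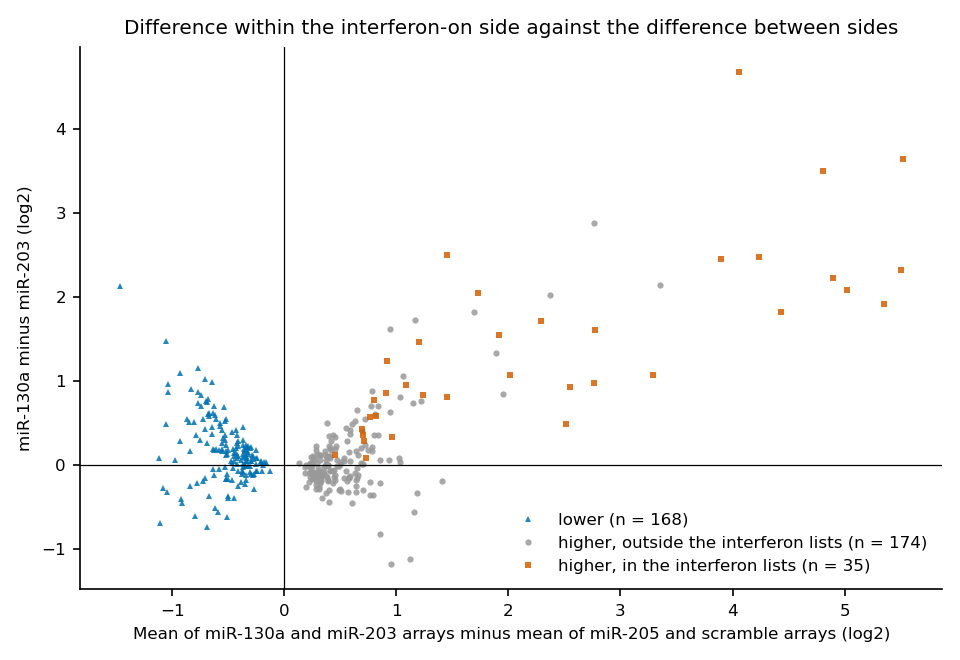
Difference between miR-130a and miR-203 (log2, vertical axis) against the difference between the sides (log2, horizontal axis), 1 point per tested member. CXCL11 lies at 4.06 between the sides and 4.69 within the interferon-on side, while UGT2B15 lies at 0.93 and 0.06.

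Outside the interferon lists the higher genes had no common direction. Of the 174 tested higher genes outside the interferon lists, 36 were higher with miR-130a (20.7%), 25 were lower (14.4%) and 113 did not pass, with a median difference of -0.01. Of all tested genes, 21.1% were higher and 20.1% lower, so the share higher was near that of all genes. When arrays were weighted by their quality in the fit, the number of all higher genes that were lower with miR-130a went from 25 to 39. Of the 168 lower genes, 52 were higher (31%) and 14 were lower (8.33%) with miR-130a, against 21.1% and 20.1% of all tested genes. Their median difference was 0.11. The sign was that of the interferon genes, but its reading differs. In a lower gene, a higher value with miR-130a lies nearer to the interferon-off arrays than the value with miR-203.

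Within the interferon-off side, the interferon genes seldom differed. Across all tested genes, 11.3% were higher and 14.8% lower with miR-205 than with scramble by the same test. Of the 35 tested interferon genes, 2 were higher, 0 were lower and 33 did not pass, and at an unadjusted p under 0.05 by limma 3 were higher and 2 lower. IFIT1 was higher with miR-205 by 0.85 ± 0.09 (SE, adjusted p = 1.98e-05) and IFI6, a mitochondrial protein that delays cell death, by 0.65 ± 0.10 (adjusted p = 0.000363). OASL missed the threshold at 0.35 ± 0.13 (adjusted p = 0.0618).

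Among the 176 higher genes in no interferon list, some also had wide gaps. Absence from the lists does not mean that interferon leaves a gene unchanged, and this was not tested. PLAAT4, a phospholipase-related growth suppressor, had means of 7.57 ± 0.13, 5.43 ± 0.21, 3.08 ± 0.07 and 3.23 ± 0.16 (SD, n = 3, in the order miR-130a, miR-203, miR-205, scramble). UBE3B, a ubiquitin ligase, had a gap of 1.04 and was singled out, like KLF4, after its values were seen. ULBP2, a stress ligand recognised by natural killer cells, measured 7.08, 6.83 and 6.76 with miR-130a, 4.28, 3.80 and 3.96 with miR-203, and between 2.65 and 2.79 on the interferon-off arrays. KLF4, a transcription factor of epithelial differentiation, measured 7.82, 7.77 and 7.65, then 5.64, 5.64 and 5.88, then 4.13, 4.22 and 4.32, then 4.55, 4.28 and 4.67. These genes kept the order of the interferon genes, with miR-130a higher than miR-203 by 2.88 ± 0.11 for ULBP2 (SE, adjusted p = 3.75e-09) and 2.03 ± 0.11 for KLF4 (adjusted p = 2.72e-08).

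A different shape, seen in genes singled out after their values were known, was a plain step with both groups of a side near each other. UGT2B15, an enzyme that glucuronidates androgens, measured 8.10, 8.06 and 8.17 with miR-130a, 8.09, 8.05 and 8.02 with miR-203, 7.15, 7.01 and 7.27 with miR-205, and 7.32, 7.02 and 7.13 with scramble. The groups of each side overlapped, with differences of 0.06 ± 0.09 (SE, adjusted p = 0.633) and -0.02 ± 0.09 (adjusted p = 0.917). Its neighbour UGT2B17, a near-identical paralog, differed between the sides by 0.76, and probe sets for the pair may share signal.

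In other members 1 group stood apart from the remaining 3. MKNK2, a kinase of the translation factor eIF4E, measured 8.70, 8.50 and 8.79 with miR-205 but 10.08, 9.84 and 9.98 with scramble, against 10.60 to 10.84 on the interferon-on arrays. It was lower with miR-205 than with scramble by -1.30 ± 0.08 (SE, adjusted p = 4.6e-07). CHMP2B, a subunit of the membrane-scission complex ESCRT-III, showed the same shape, at -1.48 ± 0.11 (adjusted p = 9.96e-07). CITED2, a coactivator-binding protein, was the reverse, with scramble lowest and miR-205 above it by 0.96 ± 0.07 (adjusted p = 9.4e-07). With BAMBI, a decoy receptor for TGF-beta, miR-203 stood out at 8.74, 8.74 and 8.66, against 7.50, 7.69 and 7.59 with miR-130a. That difference was -1.12 ± 0.09 (SE, adjusted p = 8.25e-07), opposite in direction to the interferon genes. The phosphatase DUSP2 also had its highest level with miR-203, with a difference of -1.19 ± 0.12 (adjusted p = 7.4e-06).

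The genes lower on the interferon-on side were separated by small steps. CREB3L2, a membrane-bound transcription factor of the secretory pathway, had the widest gap, 0.59, and measured 4.56, 4.18 and 4.36 with miR-130a, 4.0, 4.50 and 4.36 with miR-203, 5.64, 5.52 and 5.70 with miR-205, and 5.48, 5.15 and 5.17 with scramble. Both interferon-on groups overlapped each other. ENDOD1, a nuclease-domain protein, had the next gap, 0.48, and a difference of -1.08. The ribosome-binding protein RRBP1 differed by -0.73, the kinase STK39 by -0.84 and the mitochondrial outer membrane protein TSPO by -0.53. The sugar transporter SLC50A1, the sphingosine phosphate lyase SGPL1 and the Mediator kinase CDK19 differed by -1.04, -0.87 and -0.91. PIGV, PITRM1, NOL3, CNOT6 and FAM200C, also among the 15 with the widest gaps, differed by -0.77 to -0.51.

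**Figure D4:**
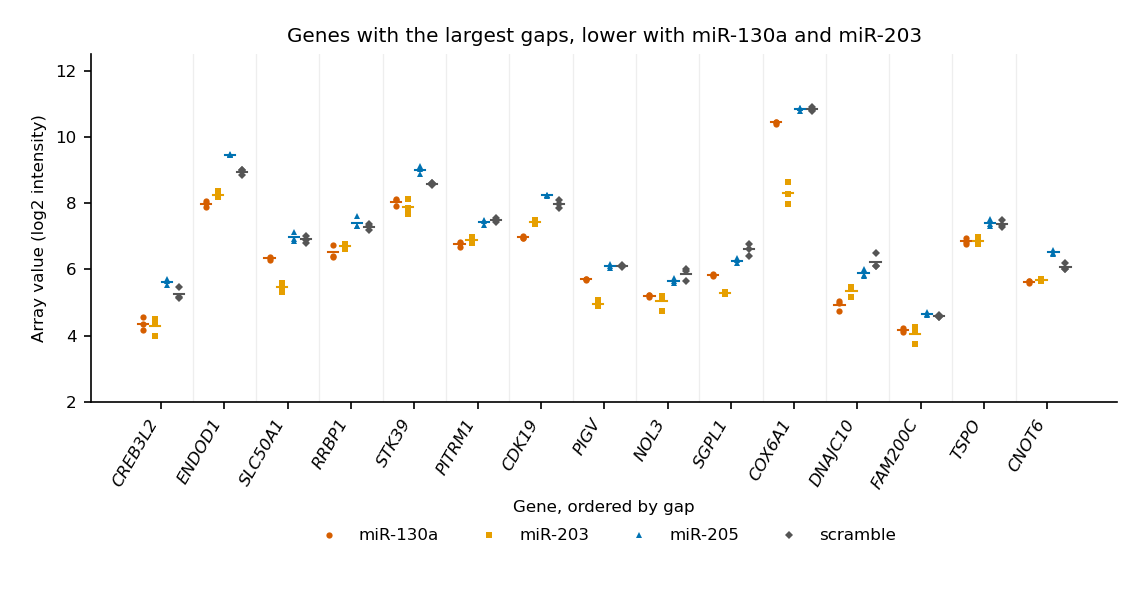
Log2 level on each of the 12 arrays for leading genes lower on the interferon-on side, by group, with short lines at the group means. The 6 interferon-on arrays of CREB3L2 lie between 4.0 and 4.56 and the 6 interferon-off arrays between 5.15 and 5.70.

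Of 38 genes for chaperones and degradation in the endoplasmic reticulum, where secreted proteins are folded, 8 were lower and 0 were higher, against 1.40% and 1.79% of all genes, and the list median was -0.21. PDIA3, a disulfide isomerase that also serves class I loading, measured 10.14, 10.14 and 10.12 with miR-130a, 8.84, 9.26 and 9.01 with miR-203, 10.59, 10.52 and 10.58 with miR-205, and 10.42, 10.50 and 10.49 with scramble. The lowest of its groups was miR-203. DNAJC10, a co-chaperone, instead measured 5.06, 4.76 and 4.98 with miR-130a and 5.16, 5.46 and 5.40 with miR-203, against 5.79 to 6.49 on the interferon-off arrays. The remaining 6 were EDEM1, SEC63, SEC61A1, HYOU1, SSR3 and SEC61B. Narrow gaps of 0.049, 0.04, 0.035 and 0.0074 separated SEC61A1, HYOU1, SSR3 and SEC61B. The further probe sets of SEC63 overlapped between the sides, with differences of -0.32 and -0.27.

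Further lower members were singled out one by one after their values were seen, from no list, and stand for no group. The chaperone CLGN differed between the sides by -0.81 and the cargo receptor TMED10 by -0.20. CPT1A, which admits fatty acids to mitochondria, had means of 7.17 ± 0.06, 5.70 ± 0.14, 7.32 ± 0.02 and 7.68 ± 0.06 (SD, n = 3, in the order miR-130a, miR-203, miR-205, scramble). Another CPT1A probe set, detected on all 12 arrays, overlapped between the sides with a difference of -0.04, so the separation depends on the probe set.

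Of 28 androgen-induced genes, 6 were lower and 0 were higher, against 1.40% and 1.79% of all genes, with a list median of -0.24. The list as a whole did not follow the division: its summed level was 194 to 195 with miR-130a and 178 to 180 with miR-203, against 198 to 200 with miR-205 and 190 to 191 with scramble, so miR-130a lay above scramble. Of its 25 tested genes, 17 were higher and 2 lower with miR-130a than with miR-203, against 21.1% and 20.1% of all tested genes. With miR-205 compared with scramble, 12 were higher and 2 lower, against 11.3% and 14.8% of all tested genes. KLK3, which encodes prostate-specific antigen, measured 11.11, 11.24 and 11.17 with miR-130a, 10.14, 10.34 and 10.15 with miR-203, 12.06, 12.04 and 11.93 with miR-205, and 11.36, 11.48 and 11.50 with scramble. The 4 groups did not overlap, and scramble lay close to miR-130a. KLK3 was higher with miR-205 than with scramble by 0.56 ± 0.08 (SE, adjusted p = 0.000165), and higher with miR-130a than with miR-203 by 0.96 ± 0.08 (adjusted p = 9.13e-07). The retinal dehydrogenase ALDH1A3 differed between the sides by -0.61 and PMEPA1, an inhibitor of TGF-beta signalling, by -0.56. The other 3 were ADAMTS1, SMS and GNMT, the last with a gap of only 0.014.

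COX6A1, a subunit of cytochrome c oxidase, had the largest difference of the lower genes, -1.47, and its lowest group was miR-203. It measured 10.45, 10.45 and 10.40 with miR-130a, 7.97, 8.65 and 8.28 with miR-203, and 10.77 to 10.90 on the interferon-off arrays. The difference between miR-130a and miR-203 was 2.13 ± 0.13 (SE, adjusted p = 8.2e-08).

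Large differences between the groups did not always follow this division. Of 38 genes of the G2 and M phases and 38 of the G1-S transition and DNA replication, 0 were members, although their medians were 0.55 and 0.37 higher on the interferon-on side. Within the sides, 37 of the 38 tested G2 and M genes were higher with miR-130a than with miR-203, against 21.1% of all tested genes. Of the same 38, 35 were lower with miR-205 than with scramble, against 14.8% of all tested genes. Of 36 genes of the ATF4 amino acid response, 1 was higher, CEBPD, and 1 was lower, CTH. There 27 of 33 tested genes were lower with miR-205 than with scramble, against 14.8% of all tested genes. The summed level of the list was 245 to 247 with scramble against 216 to 225 over the other 9 arrays. Of 17 aminoacyl-tRNA synthetases, 1 was lower, AARS1, and of 25 genes of cholesterol and fatty acid synthesis 0 were members.

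Where genes had further probe sets, those seldom went against the chosen one. The 96 higher genes with further probe sets had 184 of them, of which 127 were detected on at least 3 arrays; 42 separated the sides in the same direction, 0 in the opposite one, and 118 of the 127 had the same sign of difference. The 71 lower genes with further probe sets had 116, of which 87 were detected, 25 separated the sides in the same direction, 0 in the opposite one, and 85 had the same sign. The size depended on the probe set for some: when all probe sets of a gene were averaged, the difference of IFIH1 was 1.41, of FAS 0.53, of CFLAR 0.12, of TNFSF10 0.91, of IFI44 1.65, of CEBPD 0.20, of SGPL1 -0.55, of TGOLN2 -0.29, of BTG3 0.41 and of RRBP1 -0.33.

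Several higher genes are adjacent in the genome. Of the 214, 21 had another higher gene as the next gene in the reference table. They were the pairs IFIT2 and IFIT3, OAS1 and OAS3, IFI44 and IFI44L, CXCL10 and CXCL11, UGT2B15 and UGT2B17, DIPK1A and MTF2, PTCD3 and IMMT, DUSP2 and STARD7, and BTG3 and C21orf91, and the run of IFITM1, IFITM2 and IFITM3. Members of the IFITM family are near-identical in sequence, so their probe sets may share signal. Some of the pairs rest on narrow gaps, such as 0.002 for IMMT and 0.018 for DUSP2. Of the lower genes, 7 were adjacent to another. Adjacency was not counted over all genes, so these counts are descriptions.

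The ISRE core was frequent in the promoters of the interferon genes and not in those of the other members. In windows from 250 bases before to 50 after the start, 395 of 9563 genes (4.13%) held the core on either strand. It was found for 23 of 32 higher interferon genes with a window (71.9%), for 10 of 149 higher genes outside those lists (6.71%) and for 1 of 146 lower genes (0.685%). Tested genes of the interferon lists that were not members held it in 8 of 29 cases (27.6%). Among the 25 higher genes with a gap of at least 0.5 and a window, 13 held it (52%). The 10 outside the lists were HNRNPD, PLA1A, TAP1, SLC11A2, SECTM1, TRIM26, ZNF232, HPCAL1, TAF11 and DHX15. A match is a description of the letters and not evidence of binding, and the interferon lists hold genes known for this element.

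The STAT element (GAS) TTCNNNGAA was found for 12 of 32 higher interferon genes (37.5%), against 9.18% of all genes. An NF-kB motif was found for 10 of 32 (31.2%), against 17.2% of all genes. For the lower genes the shares were 10.3% and 23.3%. The amino acid response core TGATGNAA was held by 7 of 146 lower genes (4.79%), against 3.43% of all genes, and the ER stress element by 0 of 146, against 0.146%. Matches to different motifs overlapped in 9 promoters for the ISRE core and the STAT element, in 1 for the ISRE core and NF-kB, and in 15 for the STAT element and NF-kB.

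**Figure D5:**
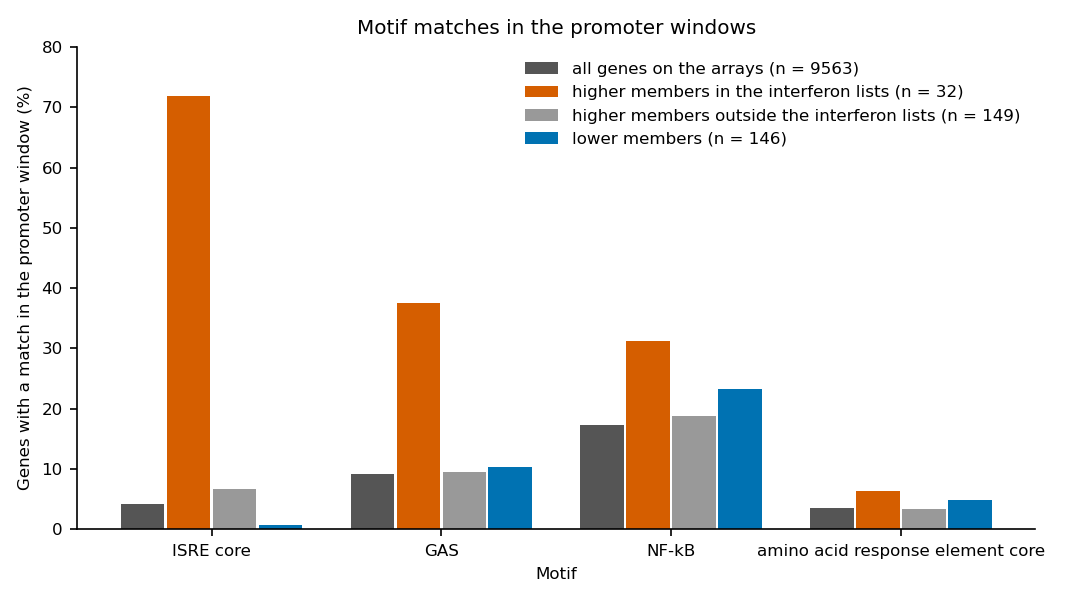
Percent of genes whose promoter window holds each motif, for all genes and for the groups of members. The ISRE core is held by 71.9% of the higher interferon genes, 6.71% of the other higher genes, 0.685% of the lower genes and 4.13% of all genes.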

How the data were processed

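Expression in 12 LNCaP cultures was measured on arrays. The authors deposited log2 values for 22277 probe sets; the submitters' processing notes name R 2.9.0, RMA and limma without roles, and the background method and the annotation are not stated in any source used. Of the probe sets, 19070 had 1 gene symbol, 1043 several and 2164 none, and those with 1 symbol were used. A total of 19058 matched the reference table (GRCh38.p14), and 0 symbols changed.

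The members and lists were chosen with earlier results of these data known. No test was made between the sides. Within the sides, limma 3.58.1 in R 4.3.3 was fitted to group means over 12 arrays (8 residual and 4.84 prior degrees of freedom), with two-sided tests, Benjamini-Hochberg adjustment over 6821 genes and a threshold of 0.05. The script was tested on simulated data. Of the 382 members, 209 of the 214 higher and 168 of the 168 lower were tested; the other 5 were detected on fewer than 3 arrays. The number of arrays limits the precision.

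Named are the genes with the largest gaps in each direction (15) and up to 6 members per list. Also named are the defining genes of the interferon pathway and the 5 largest changes per direction within each side. The 2 genes on either side of the threshold were taken from those detected on all 12 arrays. Genes named outside this rule (such as MX1, EIF2AK2, IFIT5, GBP1, IFITM2, KLF4, UBE3B, UGT2B15, TRIM21, SAMHD1, CLGN, TMED10, CPT1A and those of the adjacency and motif counts) were chosen after their values were seen. Promoters and microRNAs came from RefSeq tables; 327 members had a window, and where a gene had several start sites (2753 of 9563 genes) any match counted. Replicate numbers were not used as pairs: deviations of arrays with the same number correlated between -0.11 and 0.31. Alternatives were other probe set rules, quantile scaling, a minimum gap, array weights, a replicate block and leaving out each array.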

Additional observations from a re-analysis of the deposited data

How the results depend on the processing

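The count of genes that divide the sides depends on how wide a gap is asked for: with a gap of at least 0.1 log2 it fell from 214 to 100 higher and from 168 to 72 lower genes, and with 0.5 to 32 and 1. Leaving out 1 array gave 225 to 289 higher and 188 to 223 lower genes. With quantile scaling, other probe set rules or no overlap in any probe set (the last chosen after seeing the data), both counts stayed within 1.5 times. Leaving out genes that repeat a value within a group, which tests fewer genes, gave 185 and 158, and 21 in place of 31 interferon genes higher with miR-130a.

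Of the counts within the interferon-on side, the number of higher members that were lower with miR-130a rose from 25 to 39 with array weights. Leaving out 1 array gave 53 to 68 and 19 to 26 for the higher members, 43 to 54 and 14 to 16 for the lower members, and 27 to 31 for the interferon genes higher with miR-130a. Within the interferon-off side the counts were less stable. Of the higher members, 16 were higher with miR-205 (10 to 20 when leaving out 1 array, 10 without scramble replicate 2) and 20 were lower (16 to 21). Of the lower members, 23 were higher with miR-205 (13 to 30; 14 without miR-205 replicate 1, 13 without miR-205 replicate 3, 14 without scramble replicate 2 and 14 without scramble replicate 3) and 15 were lower (9 to 17; 9 without miR-205 replicate 1). MCL1, at 0.09 between miR-130a and miR-203, reversed to -0.37 with the probe set of largest variance and to -0.19 with the mean of its probe sets, and the cause was not tested.

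With the replicate number as a block, 31 interferon genes were higher with miR-130a, as without it, and the other counts moved from 67 to 64, 25 to 26, 52 to 55, 14 to 14, 16 to 15, 20 to 21, 23 to 22 and 15 to 14; the replicate numbers do not pair the cultures by the check made. Genes near the array median have values compressed at the low end, which limits what can be read for TLR3, IFNB1 with miR-203 and IFI44L.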

Other observations

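Probe sets without a single gene symbol were left out of all counts. Of these 3207, 31 were higher and 31 were lower on the interferon-on side without overlap, with widest gaps of 1.14 and 0.31 log2.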
